A study of Mus musculus with 21 samples.

Results

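The 9 genes described here encode transcription factors that mark projection neurons, the long-range excitatory neurons of the cerebral cortex. They are Emx1, Emx2, Tbr1, Fezf2, Bcl11b, Cux1, Cux2, Neurod2 and Neurod6. They were chosen by name from a table of nascent RNA counts for 24984 genes, and all 9 were among the 16959 genes that passed the filter on low counts. The question was which of them, besides Emx1, respond to a rise in network activity. Emx1 was chosen because its level under bicuculline was already known to be low in these libraries, so its differences between bicuculline and water, and between the bicuculline times, are given as a description, with no test.

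The assay was BrU-seq: living cells build bromouridine into newly made RNA, and this RNA is captured and sequenced. The cells were primary cultures of CD1 mouse cortex at 17 days in vitro, in 3 biological replicates of mixed sex per group. Each culture was first kept for 30 min with DMSO or with 25 µM MM401, a compound that keeps WDR5 from binding MLL1 (encoded by Kmt2a), a methyltransferase for histone H3 lysine 4. It then received 40 µM bicuculline-methiodide, an antagonist of GABA-A receptors that releases the network from inhibition, or sterile water. All cultures were given 2 mM bromouridine for the last 30 min. The 7 groups were DMSO with water for 4 h, DMSO with bicuculline for 1 h and for 4 h, and MM401 with water or bicuculline for 1 h and for 4 h. A DMSO group with water for 1 h was not analysed here, so the 1 h bicuculline response in DMSO was taken against water for 4 h. Replicate 3 of MM401 with water for 4 h held 316741 counts, or 0.503% of the median total, and was left out, which leaves 2 libraries in that group. The cultures are whole cortical cultures and not sorted neurons. Fewer cells of a type and less nascent RNA per cell therefore cannot be told apart in any of the values.

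In the developing cortex these factors act in sequence. Emx1 and Emx2 are homeobox factors of the dorsal telencephalon, where they mark and pattern the progenitors that give rise to excitatory neurons. Neurod2 and Neurod6 are basic helix-loop-helix factors switched on as those neurons differentiate. Tbr1, Fezf2 and Bcl11b (CTIP2) act in deep-layer neurons: Tbr1 is a T-box factor required for corticothalamic neurons, Fezf2 is a zinc-finger factor that specifies subcerebral projection neurons, and Bcl11b acts with it in these cells and is also expressed by interneurons. Cux1 and Cux2 are homeobox factors of upper-layer neurons.

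The 20 libraries held 49886348 to 87939384 counts in genes. Levels are given in CPM, the count of a gene scaled by the library total after TMM adjustment. Tests are edgeR's quasi-likelihood test, and a gene was called at a Benjamini-Hochberg adjusted p under 0.05 over all 16959 genes. Errors beside fold changes are standard errors (SE) on the log2 scale, and the p-values measure the spread between these samples. The treatment was visible in the activity-induced gene Npas4, which rose at 1 h by 4.43 ± 0.19 in DMSO (log2, adjusted p = 1.62e-11) and by 4.02 ± 0.18 under MM401 (adjusted p = 4.11e-11). The bicuculline response was broad: 44.6% of all genes were called at 1 h in DMSO, 49.2% at 4 h in DMSO, 39.9% at 1 h under MM401 and 44.6% at 4 h under MM401. A call by itself therefore sets a factor little apart from the rest of the genome, and the size of its change carries more. The DMSO responses at 1 h and 4 h share their water libraries, whereas the DMSO and MM401 responses share no library.

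Of the 8 factors other than Emx1, 3 were called at 1 h in DMSO (Tbr1, Fezf2 and Cux1, all higher; 20% of all genes were called higher and 24.5% lower). At 4 h in DMSO 4 of 8 were called: Tbr1, Fezf2 and Cux2 were higher (23.7% of all genes) and Neurod2 was lower (25.5% of all genes). Under MM401 5 of 8 were called at 1 h, all higher (Tbr1, Fezf2, Neurod6, Emx2 and Cux1; 18.1% of all genes were called higher and 21.8% lower). At 4 h under MM401 4 of 8 were called, with Fezf2, Tbr1 and Emx2 higher (23% of all genes) and Neurod2 lower (21.7% of all genes). The median log2 fold change of the 8 factors was 0.22, 0.14, 0.35 and 0.24 in these comparisons, in the same order, against -0.04, -0.02, -0.00 and 0.02 over all genes tested. Tbr1 and Fezf2 were the factors called in all 4 comparisons.

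**Figure D1:**
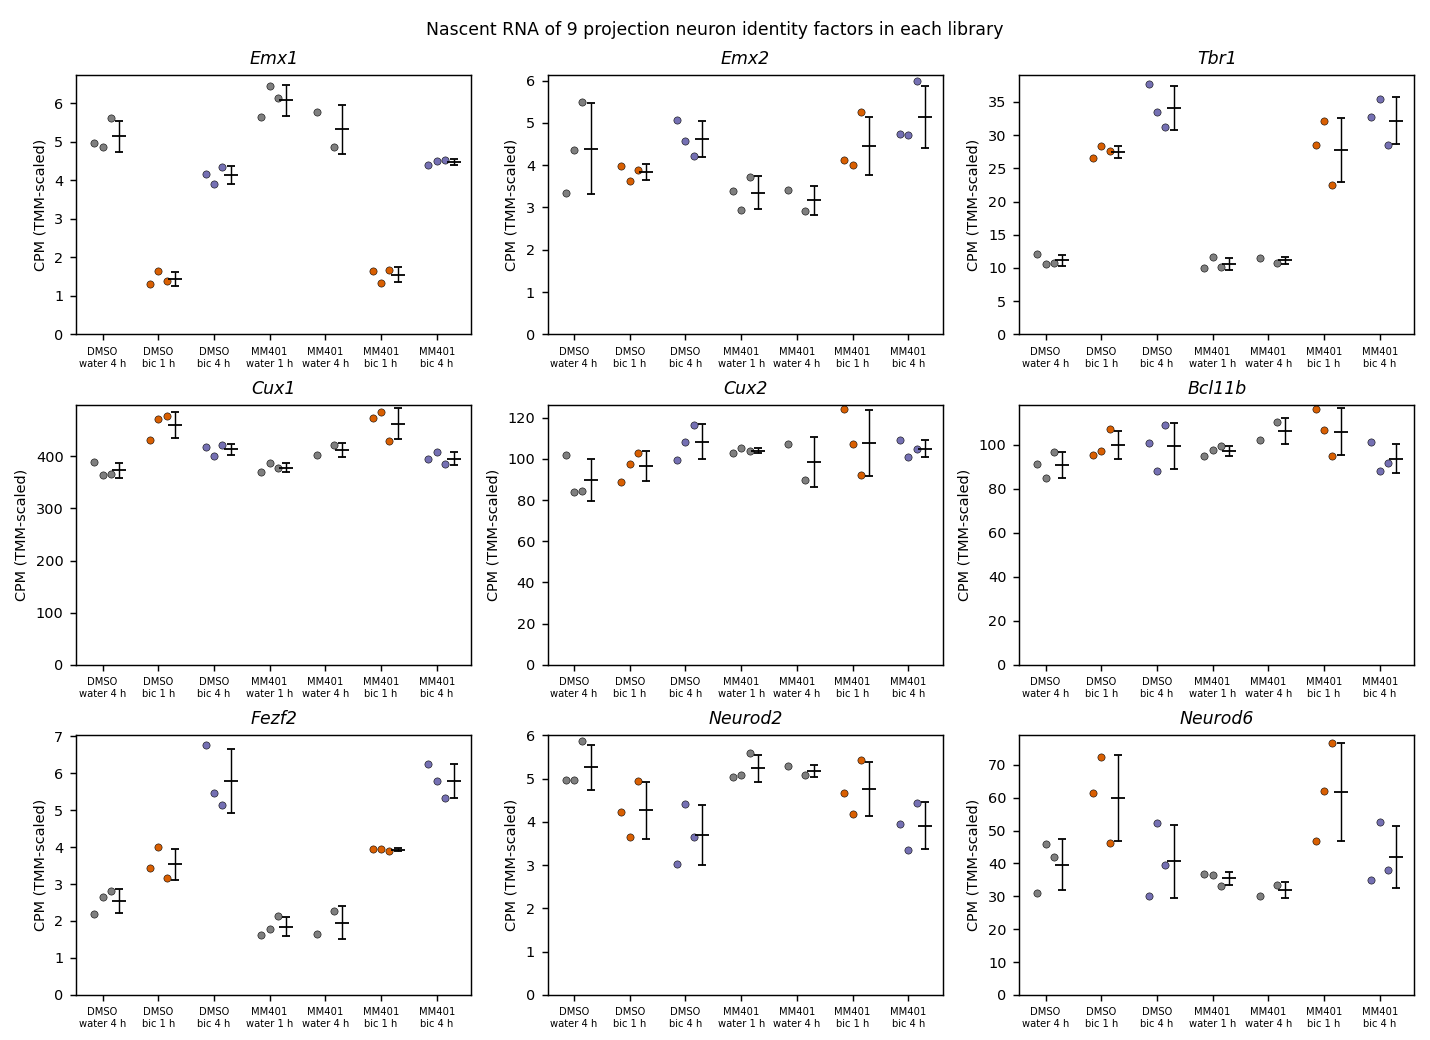
Level of each of the 9 factors in every library, in CPM of the TMM-scaled total on linear axes that start at 0, by group, with the group mean and SD drawn beside the points. Tbr1 runs from 10.03 to 12.1 CPM in water and from 22.5 to 37.7 CPM in bicuculline, while Emx1 dips to 1.30 to 1.68 CPM at 1 h of bicuculline and Bcl11b, Cux1 and Cux2 stay within a narrow band.

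**Figure D2:**
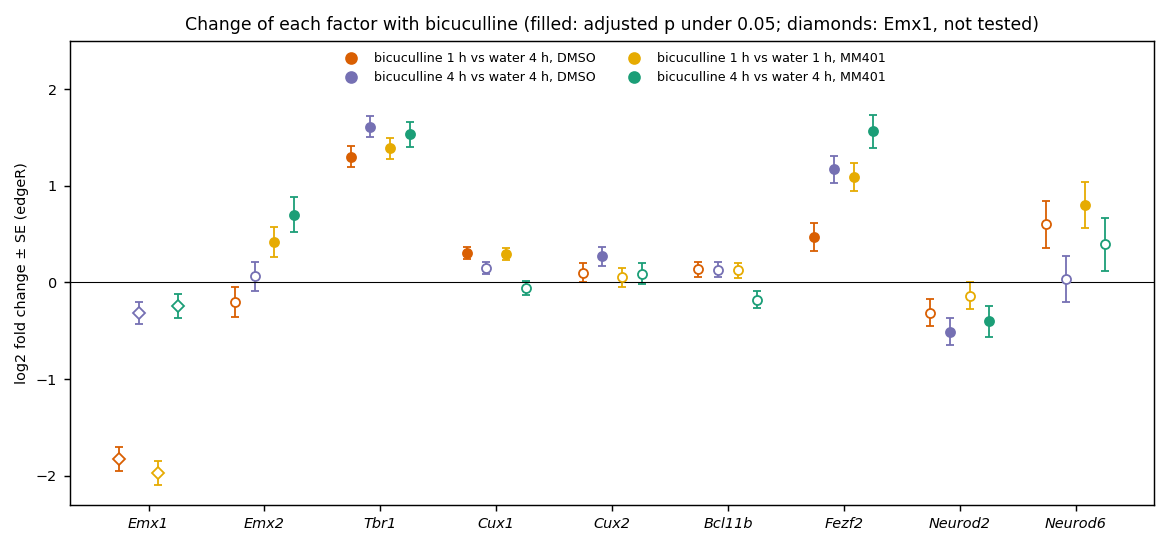
Log2 fold change of each factor, bicuculline over water, with its SE, in the 4 comparisons (DMSO and MM401 at 1 h and 4 h); filled points were called, and Emx1 (diamonds) was not tested. Tbr1 lies between 1.30 and 1.61 in all 4, Fezf2 climbs from 0.47 at 1 h to 1.17 at 4 h in DMSO, and Emx1 lies at -1.82 and -1.97 at 1 h but at -0.32 and -0.25 at 4 h.

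The promoters of the 3 factors with the largest changes are shown because their transcripts move in different directions and at different times. Each runs from 250 bases before to 50 bases after the annotated start, 5′ to 3′ on the gene's strand, from RefSeq on build GRCm38.p6. Capitals mark a match to a searched motif. Emx1 is at chr6:85187681-85187980 (plus strand), Tbr1 at chr2:61804203-61804502 (plus strand) and Fezf2 at chr14:12345816-12346115 (minus strand).
Emx1: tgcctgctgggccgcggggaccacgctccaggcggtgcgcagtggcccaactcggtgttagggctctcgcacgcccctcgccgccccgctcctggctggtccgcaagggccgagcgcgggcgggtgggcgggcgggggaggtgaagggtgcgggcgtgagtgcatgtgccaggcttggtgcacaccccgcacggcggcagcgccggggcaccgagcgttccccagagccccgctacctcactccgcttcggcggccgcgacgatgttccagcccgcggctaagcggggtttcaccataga
Tbr1: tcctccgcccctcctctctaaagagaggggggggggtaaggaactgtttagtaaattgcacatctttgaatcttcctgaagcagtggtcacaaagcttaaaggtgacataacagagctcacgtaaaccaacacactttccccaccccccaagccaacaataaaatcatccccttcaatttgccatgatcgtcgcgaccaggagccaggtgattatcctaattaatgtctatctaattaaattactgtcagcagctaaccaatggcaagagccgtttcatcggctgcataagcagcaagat
Fezf2: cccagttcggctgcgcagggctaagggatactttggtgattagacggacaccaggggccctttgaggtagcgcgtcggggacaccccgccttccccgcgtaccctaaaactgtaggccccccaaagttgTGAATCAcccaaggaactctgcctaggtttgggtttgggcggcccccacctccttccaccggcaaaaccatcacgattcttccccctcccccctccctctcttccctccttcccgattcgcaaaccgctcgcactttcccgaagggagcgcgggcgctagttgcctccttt

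The GC content of these windows was 74.0% for Emx1, 46.0% for Tbr1 and 61.3% for Fezf2. The motifs searched on both strands, in the promoters of all 9 factors, were those of factors activated by neuronal activity and of the Neurod family. They were the cAMP response element TGACGTCA (in 1.79% of all 32851 promoters of the same length), its half-site TGACG (20.8%; it lies within the whole element), the AP-1 site TGANTCA (7.81%), the MEF2 core, CTA and TAG set 4 bases apart (3.69%) and the E-box CAGATG bound by Neurod factors (17.2%). Fezf2 held a match to TGANTCA, whose leftmost base lies 121 bases before the start. The search allowed any base in the middle of this motif, and the match, TGAATCA, has A there. Emx1 and Tbr1 held none of the 5 motifs in these windows. Among the other factors, Emx2 held the half-site, Neurod2 held the half-site and the E-box, and 1 of the 2 Cux2 promoters held the E-box on the opposite strand. A match is a description of the letters only.

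Emx1 (chromosome 6, 85187930 to 85204463 of mm10, plus strand, 16.5 kb) had the lowest level per kilobase of the 9 factors, 0.239 CPM per kb over the 20 libraries. In DMSO with water the 3 libraries held 4.96, 4.87 and 5.60 CPM. After 1 h of bicuculline they held 1.30, 1.65 and 1.38 CPM, and after 4 h 4.16, 3.89 and 4.35 CPM. The low point was thus at 1 h, and the 3 groups did not overlap. Under MM401 the level was 5.63, 6.44 and 6.14 CPM with water for 1 h and 5.77 and 4.86 CPM with water for 4 h. It was 1.64, 1.33 and 1.68 CPM with bicuculline for 1 h and 4.39, 4.51 and 4.54 CPM with bicuculline for 4 h. The MM401 libraries therefore followed the same course as the DMSO libraries, with the 1 h bicuculline values apart from all others.

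In terms of fold change, Emx1 was 3.54-fold lower at 1 h in DMSO (log2 -1.82 ± 0.12) and 3.92-fold lower under MM401 (-1.97 ± 0.12). Only 11 of the 16959 genes had a lower log2 fold change in DMSO, and 13 under MM401. By 4 h the difference from water was -0.32 ± 0.11 in DMSO and -0.25 ± 0.13 under MM401, and the level at 4 h was 2.84-fold and 2.89-fold above that at 1 h. Between 70 and 434 counts lay behind each Emx1 value. Scaling to the plain library size moved the 4 h value in DMSO to -0.59, and leaving out replicate 2 of MM401 with water for 4 h moved the MM401 value to -0.40. Leaving out replicate 1 of that group moved it to -0.14, and a gene length offset moved the DMSO value to -0.21.

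Tbr1 (chromosome 2, 61804452 to 61814113, plus strand, 9.66 kb) showed the largest rise among the factors at 1 h and, in DMSO, at 4 h. In DMSO with water it stood at 12.1, 10.6 and 10.8 CPM. After 1 h of bicuculline it stood at 26.6, 28.3 and 27.5 CPM, and after 4 h at 37.7, 33.5 and 31.2 CPM. Every bicuculline library lay above every water library, and the 4 h libraries lay above the 1 h libraries in DMSO. Tbr1 rose 2.46-fold at 1 h (log2 1.30 ± 0.11, adjusted p = 5.06e-09) and 3.06-fold at 4 h (1.61 ± 0.11, adjusted p = 1.35e-10). In the distribution over all genes, 2.09% of genes had a higher fold change at 1 h and 1.13% at 4 h.

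Under MM401 Tbr1 held 10.03, 11.6 and 10.2 CPM with water for 1 h and 11.5 and 10.7 CPM with water for 4 h. With bicuculline it held 28.5, 32.2 and 22.5 CPM at 1 h and 32.7, 35.4 and 28.5 CPM at 4 h. These bicuculline libraries again lay above all water libraries, but the 1 h and 4 h ranges overlapped. The rise was 2.61-fold at 1 h (1.39 ± 0.11, adjusted p = 2.24e-09) and 2.89-fold at 4 h (1.53 ± 0.13, adjusted p = 5.93e-09). The further rise from 1 h to 4 h passed the test in DMSO (0.31 ± 0.10, adjusted p = 0.0242, edgeR). It did not pass under MM401 (0.21 ± 0.11, adjusted p = 0.125, edgeR), where it was called without replicate 2 of bicuculline for 1 h (0.34, adjusted p = 0.0230) and with plain library sizes (0.30, adjusted p = 0.0202). Without replicate 3 of bicuculline for 1 h that MM401 value was 0.05, and without replicate 2 of bicuculline for 4 h it was 0.14. The call in DMSO was lost without replicate 1 (0.29, adjusted p = 0.0785, edgeR) or replicate 3 (0.27, adjusted p = 0.0913) of bicuculline for 1 h and without replicate 1 of bicuculline for 4 h (0.24, adjusted p = 0.130). It was also lost with the shallow library kept, with plain library sizes and with a gene length offset (0.23 to 0.31). Psmd14 lies within 5 kb of Tbr1 on the same strand.

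Fezf2 (chromosome 14, 12341891 to 12345865, minus strand, 3.98 kb) was low in water and climbed at both times. In DMSO with water it stood at 2.19, 2.64 and 2.81 CPM. It reached 3.42, 4.00 and 3.17 CPM after 1 h of bicuculline and 6.77, 5.46 and 5.14 CPM after 4 h. The 3 groups did not overlap, and each later time lay above the earlier. Fezf2 rose 1.38-fold at 1 h (0.47 ± 0.14, adjusted p = 0.0102) and 2.25-fold at 4 h (1.17 ± 0.14, adjusted p = 4.41e-07). The 1 h call in DMSO was lost without replicate 2 of that bicuculline group (0.37, adjusted p = 0.0665, edgeR) and with plain library sizes (0.27, adjusted p = 0.165).

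With MM401 Fezf2 stood at 1.62, 1.78 and 2.13 CPM with water for 1 h and at 1.65 and 2.27 CPM with water for 4 h. Bicuculline libraries held 3.95, 3.95 and 3.89 CPM at 1 h and 6.25, 5.80 and 5.34 CPM at 4 h. As in DMSO, water, 1 h and 4 h formed separate ranges. The rise was 2.13-fold at 1 h (1.09 ± 0.15, adjusted p = 4.52e-06) and 2.96-fold at 4 h (1.56 ± 0.17, adjusted p = 1.74e-07). From 1 h to 4 h Fezf2 rose by 0.70 ± 0.14 in DMSO (adjusted p = 0.000336) and by 0.56 ± 0.14 under MM401 (adjusted p = 0.00311). These time differences were called under all alternatives tried. Among the 8 tested factors, the 4 h against 1 h comparison called 2 in DMSO (Tbr1 and Fezf2, both higher; 34.2% of all genes were called, 19.1% higher and 15.2% lower) and 2 under MM401 (Fezf2 higher and Cux1 lower; 33.6% of all genes were called, 17.5% higher and 16% lower).

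**Figure D3:**
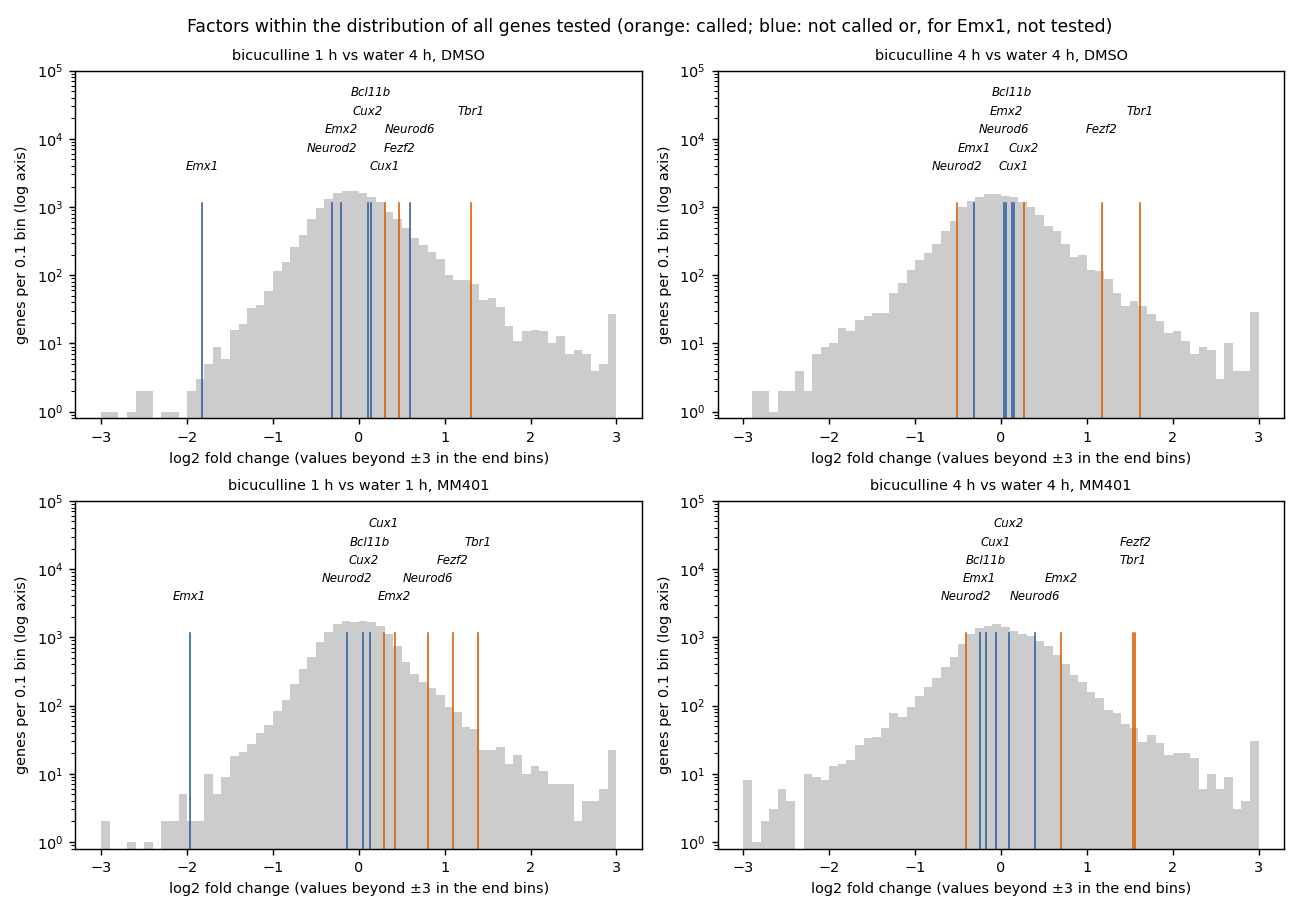
Number of genes per 0.1 bin of log2 fold change (log axis) among the 16959 genes tested, in the 4 bicuculline against water comparisons, with a vertical line at each factor. Emx1 sits in the far left tail at 1 h in both pretreatments, Tbr1 in the right tail throughout, and Cux1, Cux2 and Bcl11b near the centre.

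Bcl11b (chromosome 12, 107910402 to 108003414, minus strand, 93.0 kb), which acts with Fezf2 in deep-layer neurons, was called in none of the 4 bicuculline comparisons. Its level ran from 84.8 to 110 CPM over the 8 water libraries (median 97.1), from 95.1 to 116 CPM over the 6 libraries at 1 h (median 102) and from 88.0 to 109 CPM over the 6 at 4 h (median 96.4). In DMSO the 4 h bicuculline libraries (88.2 to 109 CPM) overlapped those with water (84.8 to 96.7 CPM). Under MM401 all 3 libraries with bicuculline for 4 h (88.0 to 101 CPM) lay below both with water for 4 h (102 and 110 CPM). The difference from water in DMSO was 0.14 ± 0.08 at 1 h (95% interval -0.03 to 0.30) and 0.13 ± 0.08 at 4 h (-0.03 to 0.29). Under MM401 it was 0.12 ± 0.08 at 1 h (-0.04 to 0.29) and -0.18 ± 0.09 at 4 h (-0.36 to 0.00). With plain library sizes the positive values turned negative (-0.06 and -0.14 in DMSO, -0.09 under MM401). With other settings Bcl11b was called lower at 4 h under MM401, namely with plain library sizes (-0.25, adjusted p = 0.0267, edgeR), a gene length offset (-0.24, adjusted p = 0.0139) and the groups of the comparison alone (-0.20, adjusted p = 0.0139). It was called higher without replicate 2 of DMSO with bicuculline for 4 h (0.21, adjusted p = 0.0371, edgeR) and without replicate 3 of MM401 with bicuculline for 1 h (0.21, adjusted p = 0.0480, edgeR). From 1 h to 4 h of bicuculline under MM401 the difference was -0.18 ± 0.08 (adjusted p = 0.0903, edgeR), and it was called without replicate 3 of the 1 h group (-0.28, adjusted p = 0.0106) or replicate 1 of the 4 h group (-0.24, adjusted p = 0.0479). That value was -0.11 without replicate 1 of the 1 h group. The 4 h value in DMSO was 0.06 without replicate 3 of bicuculline and 0.07 without replicate 2 of water, and the 1 h value under MM401 was 0.05 without replicate 1 of bicuculline.

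Cux1 (chromosome 5, 136248134 to 136567490, minus strand) is the longest of the factors at 319 kb. In DMSO it held 389, 364 and 366 CPM with water, 431, 471 and 477 CPM after 1 h of bicuculline and 418, 401 and 421 CPM after 4 h. It was thus highest at 1 h. Cux1 rose 1.23-fold at 1 h in DMSO (0.30 ± 0.06, adjusted p = 0.000466) and 1.22-fold at 1 h under MM401 (0.29 ± 0.06, adjusted p = 0.000715). At 4 h the difference was 0.15 ± 0.06 in DMSO (adjusted p = 0.0519, edgeR) and -0.06 ± 0.07 under MM401 (adjusted p = 0.522). Both 1 h calls were lost with a gene length offset (0.06 in each) and with plain library sizes (0.11 in DMSO, 0.07 under MM401). The 4 h value in DMSO depended on the scaling. Cux1 was called higher there with DESeq2 (0.17, adjusted p = 0.0137), with RLE size factors (0.17, adjusted p = 0.0456, edgeR) and without replicate 1 of water (0.18, adjusted p = 0.0261). It was called lower with plain library sizes (-0.12, adjusted p = 0.0323, edgeR) and was at -0.09 with a gene length offset, not called. Plain library sizes also gave a lower call at 4 h under MM401 (-0.13, adjusted p = 0.0490, edgeR).

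The MM401 libraries held 370, 388 and 377 CPM of Cux1 with water for 1 h and 402 and 422 CPM with water for 4 h. They held 473, 486 and 429 CPM with bicuculline for 1 h and 394, 409 and 384 CPM for 4 h. From 1 h to 4 h of bicuculline Cux1 fell by 0.23 on the log2 scale under MM401 (SE 0.06, adjusted p = 0.00712). In DMSO that difference was -0.15 ± 0.06 (adjusted p = 0.0640, edgeR) and was called without replicate 1 of bicuculline for 1 h (-0.20, adjusted p = 0.0301, edgeR). It was also called by DESeq2 (-0.17, adjusted p = 0.0212), with plain library sizes (-0.23, adjusted p = 0.000547) and with a gene length offset (-0.15, adjusted p = 0.0159). The MM401 call was lost with the shallow library kept (-0.25) and with a gene length offset (-0.05). The locus also holds Mir721 in the count table and Gm30408 and Gm16599 in RefSeq, and the use of strand in counting is not stated, so the Cux1 counts may hold reads of these genes.

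Cux2 (chromosome 5, 121860215 to 122049851, minus strand, 190 kb) was called in 1 of the 4 bicuculline comparisons, at 4 h in DMSO. It held 102, 83.9 and 84.2 CPM in DMSO with water, 88.9, 97.6 and 103 CPM at 1 h and 99.6, 108 and 117 CPM at 4 h, with overlapping ranges. At 1 h in DMSO the difference was 0.10 ± 0.10, and it was 0.20 without replicate 1 of water and 0.16 without replicate 1 of bicuculline. At 4 h in DMSO Cux2 rose 1.20-fold (0.27 ± 0.10, adjusted p = 0.0246). That call was lost without replicate 2 (0.27, adjusted p = 0.0522, edgeR) or replicate 3 (0.21, adjusted p = 0.111) of the bicuculline group. It was also lost without replicate 2 (0.20, adjusted p = 0.141) or replicate 3 (0.20, adjusted p = 0.148) of the water group, with the shallow library kept (0.25), with a gene length offset (0.05) and with plain library sizes (0.00). Under MM401 the differences were 0.05 ± 0.10 at 1 h and 0.09 ± 0.11 at 4 h, and neither was called. They were 0.16 without replicate 3 of bicuculline for 1 h and -0.06 without replicate 1 of it, and 0.20 and -0.06 without replicate 1 and replicate 2 of water for 4 h. Both 1 h values turned negative with plain library sizes (-0.08 and -0.17). Gm52785 overlaps Cux2 in RefSeq.

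The 3 factors whose genes span more than 90 kb (Bcl11b, Cux2 and Cux1) had log2 fold changes between -0.18 and 0.30 over the 4 bicuculline comparisons. The 6 factors whose genes span 3.45 to 16.5 kb ranged from -1.97 to 1.61. With a gene length offset in the fit, both Cux1 calls at 1 h and the Neurod2 and Cux2 calls at 4 h in DMSO were lost, while Tbr1 and Fezf2 stayed called in all 4 comparisons.

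Neurod2 (chromosome 11, 98325416 to 98329645, minus strand, 4.23 kb) was the 1 tested factor called lower with bicuculline, at 4 h in both pretreatments. In DMSO it stood at 4.97, 4.96 and 5.87 CPM with water, 4.22, 3.64 and 4.95 CPM at 1 h and 3.02, 4.40 and 3.64 CPM at 4 h. The water libraries lay above all bicuculline libraries, the nearest at 4.96 against 4.95 CPM, and the 1 h and 4 h ranges overlapped. The difference at 1 h was -0.31 ± 0.14 (adjusted p = 0.0757, edgeR). At 4 h Neurod2 fell by 0.51 on the log2 scale (SE 0.14, adjusted p = 0.00468), which a gene length offset brought to -0.31 (adjusted p = 0.0788). The 1 h value was called without replicate 3 of bicuculline for 1 h (-0.41, adjusted p = 0.0387, edgeR), with the replicate number as a block (-0.31, adjusted p = 0.0426) and with plain library sizes (-0.51, adjusted p = 0.0120). It was smaller with a gene length offset (-0.10), without replicate 2 of bicuculline (-0.21) and without replicate 3 of water (-0.21).

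Under MM401 Neurod2 held 5.03, 5.09 and 5.60 CPM with water for 1 h and 5.29 and 5.09 CPM for 4 h. Bicuculline libraries held 4.67, 4.18 and 5.43 CPM at 1 h and 3.96, 3.35 and 4.43 CPM at 4 h. Only at 4 h did all bicuculline libraries lie under all water libraries. Neurod2 fell by 0.40 at 4 h (SE 0.16, adjusted p = 0.0431), and at 1 h the difference was -0.14 ± 0.14 (adjusted p = 0.474, edgeR). The 1 h value ran from -0.05 to -0.24 with single libraries left out, the ends being without replicate 2 and without replicate 3 of bicuculline, and was -0.08 without replicate 3 of water. The 4 h call was lost without replicate 1 (-0.41, adjusted p = 0.0764, edgeR) or replicate 2 (-0.31, adjusted p = 0.160) of bicuculline, and without replicate 1 (-0.40, adjusted p = 0.143) or replicate 2 (-0.46, adjusted p = 0.0844) of water. It was also lost with the shallow library kept (-0.41, adjusted p = 0.0610).

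Neurod6 (chromosome 6, 55677818 to 55681263, minus strand, 3.45 kb) had the highest level per kilobase of the 9 factors, 13.1 CPM per kb, and the largest SE of the log2 fold change in all 4 bicuculline comparisons (0.24 to 0.27). In DMSO it held 30.9, 45.9 and 41.9 CPM with water, 61.5, 72.3 and 46.2 CPM at 1 h and 30.1, 52.3 and 39.5 CPM at 4 h. The 1 h libraries lay above the water libraries, the nearest by a small margin, and the 4 h libraries spread across them. Under MM401 it held 36.9, 36.5 and 33.3 CPM with water for 1 h and 30.2 and 33.5 CPM for 4 h. With bicuculline it held 46.8, 62.04 and 76.7 CPM at 1 h and 35.0, 52.8 and 37.9 CPM at 4 h.

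At 1 h Neurod6 rose 1.74-fold under MM401 (0.80 ± 0.24, adjusted p = 0.0163). In DMSO the difference at 1 h was 0.60 ± 0.24 (adjusted p = 0.0555, edgeR). At 4 h the differences were 0.04 ± 0.24 in DMSO and 0.39 ± 0.27 under MM401, neither of which was called. The former was -0.25 with plain library sizes, and the latter 0.19 without replicate 2 of that bicuculline group. Between the bicuculline times, 4 h against 1 h, the difference was -0.56 ± 0.24 in DMSO (adjusted p = 0.0861, edgeR) and -0.57 ± 0.24 under MM401 (adjusted p = 0.0872). Neither was called, but with the replicate number as a block both were (-0.58, adjusted p = 0.0293, and -0.58, adjusted p = 0.0324, edgeR). They were also called by DESeq2 (adjusted p = 0.0424 and 0.0414) and with a gene length offset (adjusted p = 0.0217 and 0.00932). Leaving out replicate 3 of the 1 h group (-0.76) or replicate 2 of the 4 h group (-0.79) brought a call in DMSO, as did leaving out replicate 1 of the 1 h group (-0.73) or replicate 2 of the 4 h group (-0.76) under MM401.

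The MM401 call at 1 h was lost without replicate 3 of bicuculline (0.62, adjusted p = 0.0676, edgeR), without replicate 3 of water (0.76, adjusted p = 0.0503) and with plain library sizes (0.60, adjusted p = 0.0750). The DMSO value at 1 h was called without replicate 3 of bicuculline (0.77, adjusted p = 0.0257, edgeR), without replicate 2 of water (0.75, adjusted p = 0.0450) and with the replicate number as a block (0.61, adjusted p = 0.0186). It was also called by DESeq2 (0.64, adjusted p = 0.0180), with RLE size factors, with a gene length offset and with the groups of the comparison alone.

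Emx2 (chromosome 19, 59458689 to 59465357, plus strand, 6.67 kb), the homeobox relative of Emx1, did not share its drop. In DMSO it held 3.33, 4.35 and 5.48 CPM with water, 3.99, 3.62 and 3.88 CPM at 1 h and 5.06, 4.58 and 4.22 CPM at 4 h. The water libraries spanned all of the bicuculline values. Differences from water in DMSO were -0.21 ± 0.15 at 1 h (adjusted p = 0.291, edgeR) and 0.06 ± 0.15 at 4 h (adjusted p = 0.761, edgeR). Without replicate 1 of DMSO with water, the lowest of that group, the 1 h value was -0.36 (adjusted p = 0.0489, edgeR) and the 4 h value -0.09. Without replicate 3, the highest of that group, the 1 h value was -0.00059 (adjusted p = 0.998, edgeR). With plain library sizes the 4 h value was -0.22. Emx2os, on the opposite strand, lies within 5 kb of Emx2.

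Under MM401 Emx2 held 3.38, 2.95 and 3.72 CPM with water for 1 h and 3.41 and 2.92 CPM for 4 h. It held 4.13, 4.00 and 5.25 CPM with bicuculline for 1 h and 4.73, 4.71 and 5.98 CPM for 4 h. Here all bicuculline libraries lay above all water libraries. Emx2 rose 1.33-fold at 1 h (0.42 ± 0.16, adjusted p = 0.0385) and 1.62-fold at 4 h (0.70 ± 0.18, adjusted p = 0.00296). The 1 h call was lost without replicate 3 of bicuculline (0.29, adjusted p = 0.195, edgeR), without replicate 1 (0.42, adjusted p = 0.0743) or replicate 2 (0.33, adjusted p = 0.154) of water, with the shallow library kept (0.42, adjusted p = 0.0782) and with plain library sizes (0.21). The 4 h call was lost without replicate 2 of water (0.56, adjusted p = 0.0652, edgeR).

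Markers of astrocytes, which were present in the cultures, moved with Emx2 in some comparisons and not in others. All 9 astrocyte markers were detected, and the lowest group mean among them was 0.752 CPM. Their summed level ran from 1103 to 1374 CPM in the 5 MM401 water libraries, from 1629 to 1697 CPM in MM401 with bicuculline for 1 h and from 1369 to 1444 CPM for 4 h. In DMSO the sum ran from 1151 to 1643 CPM with water, from 1577 to 1715 CPM at 1 h and from 1375 to 1498 CPM at 4 h. The group means of Emx2 and of this sum were thus higher with bicuculline than with water of the same time under MM401. At 1 h in DMSO, however, the mean sum was higher than with water (1666 against 1440 CPM) while the mean of Emx2 was lower (3.83 against 4.39 CPM). Single markers differed there: Slc1a3, an abundant glutamate transporter gene, was higher (529 against 351 CPM), whereas Aqp4 was called lower (-0.38) and Gja1 and Aldoc, not called, were at -0.22 and -0.51. That comparison is against water for 4 h, and under MM401 Slc1a3 stood at 410 CPM with water for 1 h and 288 CPM with water for 4 h. From 1 h to 4 h under MM401 the mean sum went from 1671 to 1394 CPM and Emx2 from 4.46 to 5.14 CPM. Slc1a3 went down with the sum (558 to 385 CPM), while the means of Aqp4 (57.2 to 76.9 CPM), Gja1 (27.6 to 34.2 CPM) and Aldoc (20.6 to 22.2 CPM) were higher at 4 h, as that of Emx2 was. Replicate 1 of DMSO with water, lowest for Emx2, was also lowest for this sum. Under MM401 5 of 9 astrocyte markers were called higher at 1 h (18.1% of all genes) and 4 of 9 at 4 h (23% of all genes), and in DMSO 3 were higher and 1 lower at 1 h (20% and 24.5% of all genes) and 1 was higher at 4 h (23.7% of all genes). Sox9, a glial transcription factor, rose in all 4 comparisons (0.49, 0.39, 0.84 and 1.00). The 3 genes whose pattern over the 20 libraries was most like that of Emx2 were Zic2 (r = 0.908), Smc4 (0.885) and Gja1 (0.884). Zic2 and Smc4 are not on the astrocyte list, and Gja1 encodes the astrocytic gap junction protein connexin 43. The part of the astrocyte markers in the Emx2 values was not tested.

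**Figure D4:**
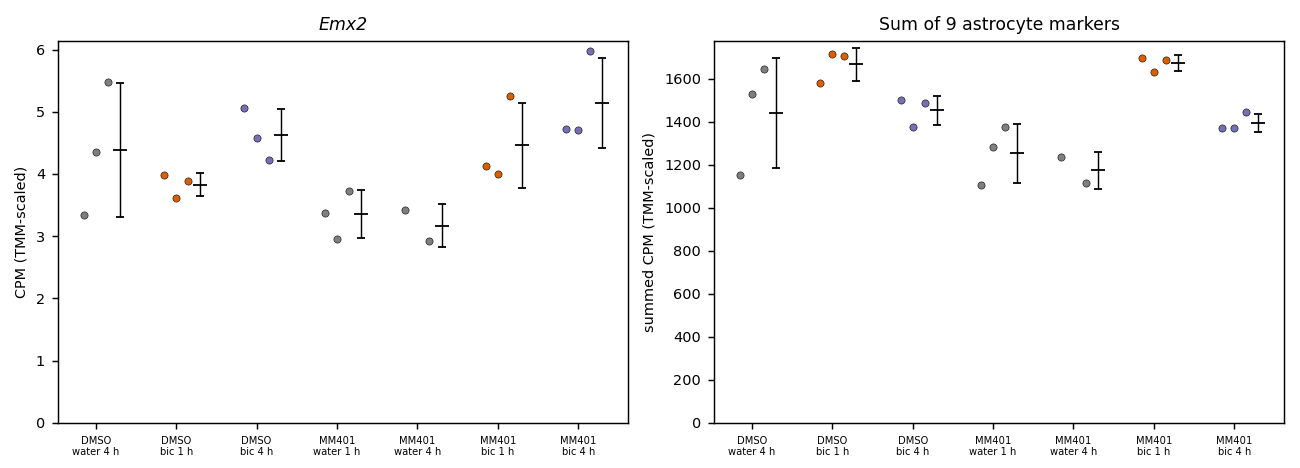
Left, level of Emx2 in CPM in each of the 20 libraries by group; right, summed CPM of the 9 astrocyte markers in the same libraries, both with the group mean and SD. In DMSO with water both panels spread widely (3.33 to 5.48 CPM and 1151 to 1643 CPM), and under MM401 the group means of both are lower with water than with bicuculline of the same time.

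MM401 against DMSO called none of the 9 factors, in water at 4 h (0.0826% of all genes were called by edgeR), in bicuculline at 1 h (0.0059%) or in bicuculline at 4 h (0%). At an unadjusted p under 0.05 there were 3 of 9 factors in water (2194 of all 16959 genes) and 0 in either bicuculline comparison (540 genes at 1 h and 1309 at 4 h), and DESeq2 called 0 factors in each. The 3 were Emx2 (-0.48 ± 0.18, adjusted p = 0.275, edgeR), Bcl11b (0.22 ± 0.09, adjusted p = 0.289) and Fezf2 (-0.39 ± 0.17, adjusted p = 0.342). Emx2 in water was called without replicate 1 of DMSO with water (-0.63, adjusted p = 0.0250, edgeR) and was -0.29 without replicate 3 of that group (adjusted p = 0.758). For Emx1 the MM401 difference was 0.05 ± 0.12 in water (95% interval -0.21 to 0.31), 0.09 ± 0.13 at 1 h of bicuculline (-0.19 to 0.37) and 0.12 ± 0.11 at 4 h (-0.12 to 0.35). For Tbr1 the intervals were -0.26 to 0.26, -0.21 to 0.23 and -0.30 to 0.13. Over all 9 factors the difference ran from -0.48 to 0.22 in water, from 0.01 to 0.23 at 1 h of bicuculline and from -0.09 to 0.16 at 4 h.

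Between 1 h and 4 h of water under MM401, edgeR called none of the 9 factors (0.867% of all genes), none passed an unadjusted p under 0.05, and DESeq2 called 0. The differences ran from -0.19 to 0.13. The bicuculline response at 4 h under MM401 minus that in DMSO was also called by edgeR for none of the 8 factors other than Emx1 (0% of all genes), with 3 at an unadjusted p under 0.05 (2552 of all 16959 genes). They were Emx2 (0.64 ± 0.23, 95% interval 0.15 to 1.12, adjusted p = 0.244, edgeR), Bcl11b (-0.31 ± 0.12, -0.56 to -0.07, adjusted p = 0.253) and Cux1 (-0.21 ± 0.09, -0.40 to -0.01, adjusted p = 0.304). DESeq2 called Cux1 (-0.24, adjusted p = 0.0499), and edgeR called Emx2 without replicate 1 of DMSO with water (0.79, adjusted p = 0.0248). With a gene length offset the Emx2 value was 0.42, and that of Cux1 was 0.03 with the offset and -0.01 with plain library sizes. The Emx2 call under MM401 and its absence in DMSO are therefore not shown to differ with all 20 libraries.

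Ordered by level, the 7 groups fell into blocks for 3 factors. Emx1 ran from the water groups (5.14 to 6.07 CPM on average) through bicuculline for 4 h (4.13 and 4.48 CPM) to bicuculline for 1 h (1.44 and 1.55 CPM). Neighbouring groups within water and within 1 h overlapped, whereas the DMSO and MM401 groups at 4 h did not (3.89 to 4.35 against 4.39 to 4.54 CPM). Tbr1 ran from bicuculline for 4 h (34.1 and 32.2 CPM) through bicuculline for 1 h (27.7 and 27.5 CPM) to the water groups (10.6 to 11.2 CPM), with a gap between DMSO with bicuculline for 1 h (27.5 ± 0.90 CPM, SD, n = 3) and DMSO with water (11.2 ± 0.84 CPM, SD, n = 3) and overlap elsewhere. Fezf2 showed gaps on both sides of the 1 h groups. Cux1 had a single gap, between the 1 h groups and the rest, and in the remaining 5 factors all neighbouring groups overlapped. Per kilobase of gene, the mean levels were 13.1 CPM for Neurod6, 2.34 for Tbr1, 1.30 for Cux1, 1.09 for Neurod2, 1.06 for Bcl11b, 0.934 for Fezf2, 0.628 for Emx2, 0.536 for Cux2 and 0.239 for Emx1.

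Over the 20 libraries, the factor pair with the most similar pattern was Tbr1 and Fezf2 (Pearson r of log2 CPM 0.909), and the pair with the most opposed was Emx1 and Cux1 (-0.863). Among 11849 other genes, the nearest to Emx1 were Dgke (r = 0.970), Gpc1 (0.969) and Lrp11 (0.965), whose own changes at 1 h in DMSO were smaller (-0.45, -0.45 and -0.79). Kitl (0.989), Klhl7 (0.987) and Gpr85 (0.987) were nearest to Tbr1. Nampt (0.971), Fat1 (0.968) and Cep85l (0.967) were nearest to Fezf2. Cux1 was nearest to Foxp1 (0.972) and Bcl11a (0.963), factors of the list described next, and to Acvr1 (0.957). Neurod6 was nearest to Tinf2 (0.940), and Neurod2 to Lyar (0.852). All genes share the same libraries, depth and treatment groups, so these values are descriptions.

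Most of the wider set of projection neuron factors were called higher at 4 h. Of 30 other factors of layer and area identity, all tested, 16 were called higher and 3 lower at 1 h in DMSO (20% and 24.5% of all genes; median 0.24, against -0.04 over all genes). At 4 h in DMSO 21 were higher and 0 lower (23.7% and 25.5% of all genes; median 0.44, against -0.02). Under MM401 23 were higher and 1 lower at 1 h (18.1% and 21.8% of all genes; median 0.38, against -0.00), and 24 higher and 0 lower at 4 h (23% and 21.7% of all genes; median 0.42, against 0.02). With the shallow library kept, the counts called higher at 1 h were 7 in DMSO and 11 under MM401, and with plain library sizes they were 9 and 12. Plain library sizes also brought those called lower at 1 h to 8 in DMSO and 3 under MM401, and at 4 h gave 15 higher and 2 lower in DMSO and 22 higher and 2 lower under MM401. The list was written with earlier results of these data known.

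By the rule for naming, 4 of these 30 stood out at 4 h. Cited2, a transcriptional coregulator, rose by 1.94, 1.28, 2.06 and 1.502 (log2; 1 h and 4 h in DMSO, then 1 h and 4 h under MM401). Prdm8, a corepressor that works with Bhlhe22 in corticospinal axon formation, rose by 1.31, 1.23, 1.27 and 0.99. Pou3f1, a POU-domain factor, rose at 4 h by 1.18 in DMSO and 1.52 under MM401. Its 1 h values of 0.45 and 0.49 were not called (adjusted p = 0.0740 and 0.0573, edgeR). Bhlhe22, a basic helix-loop-helix factor of area identity, was at 0.09 at 1 h in DMSO, not called, and rose by 0.66, 0.86 and 1.04 in the other comparisons. The rises of Tbr1 at 4 h (1.61 and 1.53) lay above those of all 30 of these factors in both pretreatments, under MM401 by less than the SE of Pou3f1 (1.52 ± 0.23).

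**Figure D5:**
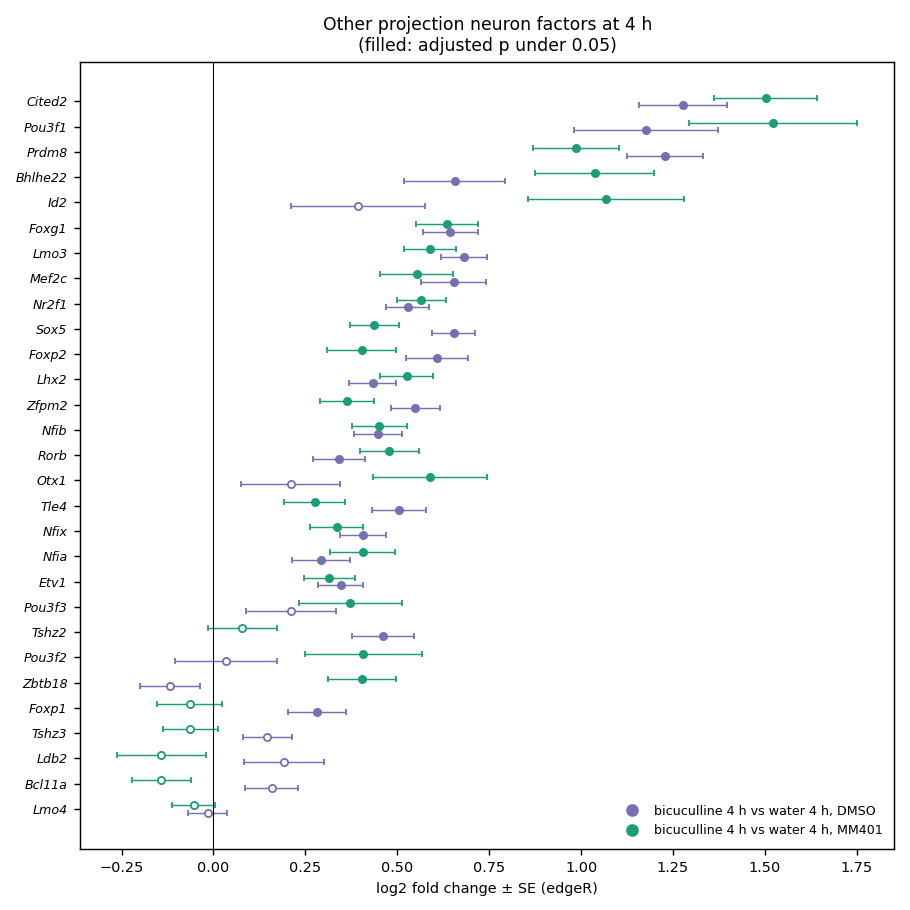
Log2 fold change, bicuculline over water at 4 h, of other projection neuron factors, drawn for those reported by name, with DMSO and MM401 as separate points with their SE; filled points were called. Cited2, Pou3f1 and Prdm8 lie at the upper end, and no factor drawn has a filled point under 0.

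Factors of earlier stages of cortical neurogenesis were called in both directions in DMSO, at shares near those of all genes. Of 13 on this list, 11 passed the filter on low counts and Neurog1 and Sox2 did not. In DMSO 2 were called higher and 3 lower at 1 h (20% and 24.5% of all genes), and 2 higher and 2 lower at 4 h (23.7% and 25.5%). Under MM401 the counts were 2 higher and 2 lower at 1 h (18.1% and 21.8%), and 5 higher and 0 lower at 4 h (23% and 21.7%). Sox4, an SRY-box factor of newborn neurons, rose in all 4 comparisons (0.99, 0.77, 1.00 and 1.14). Pax6, a paired-box factor of cortical progenitors, rose at 4 h (0.32 in DMSO and 0.58 under MM401). These small counts moved with the settings. Without replicate 2 of MM401 with water for 4 h, 3 rather than 5 were called higher, and the 2 lower at 4 h in DMSO changed in 11 of 14 alternatives, to 4 with plain library sizes and to 1 in the others. The 2 lower at 1 h under MM401 changed in 10 of 14 alternatives, to 1 or, with the shallow library kept and without replicate 2 of bicuculline or replicate 1 or 3 of water, to 0.

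Markers of the cell types in the cultures also moved with bicuculline. Of 9 glutamatergic markers, 2 were higher and 4 lower at 1 h in DMSO (20% and 24.5% of all genes). Under MM401 2 were higher and 6 lower at 1 h (18.1% and 21.8% of all genes). At 4 h 4 were higher and 3 lower in DMSO and 5 higher and 3 lower under MM401. Over all genes, 23.7% were called higher and 25.5% lower at 4 h in DMSO and 23% and 21.7% under MM401, against which the counts of these lists are to be read. Slc17a6, the vesicular glutamate transporter VGLUT2, rose at 4 h by 1.56 in DMSO and 1.12 under MM401, while the synaptic zinc transporter gene Slc30a3 fell (-1.497 and -1.56), as did Nrgn (-0.63 and -0.52) and Camk2a (-0.48 and -0.61), which encode postsynaptic calmodulin-binding proteins. The summed glutamatergic level ran from 708 to 905 CPM in DMSO with water and from 1131 to 1219 CPM in DMSO with bicuculline for 4 h. Under MM401 it ran from 872 to 912 CPM with water for 4 h and from 1057 to 1158 CPM with bicuculline for 4 h. Of 13 GABAergic markers tested, 5 were higher and 0 lower at 1 h in DMSO, and 10 higher and 0 lower under MM401. At 4 h 6 were higher and 0 lower in each pretreatment. Gad2 rose by 1.12 and 0.91 and Gad1 by 0.84 and 0.67, both encoding enzymes of GABA synthesis. The summed GABAergic level ran from 2665 to 3471 CPM in DMSO with water and from 4024 to 4179 CPM in DMSO with bicuculline for 4 h. Under MM401 the 4 h ranges overlapped, at 3128 to 3221 CPM with water and 3171 to 3909 CPM with bicuculline. Adarb2 and Erbb4, markers of interneuron subtypes, rose at 4 h in DMSO (0.36 and 0.41) and were not called under MM401 (-0.03 and 0.16, adjusted p = 0.862 and 0.355, edgeR). At 4 h the oligodendrocyte lineage list had 3 of 9 markers higher in each pretreatment, microglia 2 of 6 in DMSO and 4 of 6 under MM401, and endothelial cells and fibroblasts 1 of 7 in each. None of these last 3 lists had a marker called lower at 4 h. The part of these markers in the values of Emx1, Tbr1, Fezf2, Cux1, Neurod2 and Neurod6 was not tested.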

How the data were processed

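Raw read counts per gene, deposited by the authors as 1 table on mouse build mm10, were used; per the file headers they came from featureCounts over the whole span of each gene, introns included. Bowtie2, featureCounts, UMI-tools, DESeq2 and deepTools are named in the submitters' processing notes; their settings, and the use of strand in counting, are not given in the sources used here. Of 21 libraries, 20 entered 1 fit of 7 groups with edgeR 4.0.16 (R 4.3.3, limma 3.58.1), without replicate 3 of MM401 with water for 4 h. Genes were kept by filterByExpr (minimum count 10, minimum total 15), libraries were scaled by TMM, and robust quasi-likelihood tests were adjusted by Benjamini-Hochberg over 16959 genes in each of 11 comparisons. The procedure was tested on simulated counts with the same spread for all genes, in bicuculline against water for 4 h in DMSO. Of 100 simulated log2 changes of 0.5, 67% were called in the right direction, and of 100 changes of 1, 100%. Among genes simulated without a change, 8 were called. No pair of replicates agreed within sampling noise (chi-square per degree of freedom 6.14 to 78.5 over 19 pairs).

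The genes and lists were chosen with earlier results of these data known. Named from each list were up to 4 genes in each direction called at 4 h in both pretreatments; likeness used log2(CPM + 0.5), genes with a mean of at least 2 CPM and the 3 highest Pearson r. Alternatives were DESeq2 1.42.0, the shallow library kept, plain library sizes, RLE size factors, no filter, a gene length offset (lowess span 0.3), the replicate number as a block, the groups of a comparison alone, and each library left out in turn. Same-numbered libraries deviated together with r over 0.1 in all 3 pairs in 1 comparison, MM401 against DMSO in bicuculline for 4 h (0.150, 0.107 and 0.172), where the block left the count of calls at 0; no label gives the meaning of the numbers. Totals of 49886348 to 87939384 counts set the depth. A member of the list of other projection neuron factors is counted in that list but not reported by name here.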

Additional observations from a re-analysis of the deposited data

Results flagged for a closer look

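The bicuculline response of Tbr1 in DMSO was larger at 4 h than at 1 h by 0.31 ± 0.10 on the log2 scale (adjusted p = 0.0242, edgeR; 3 of 3 libraries at 4 h above all at 1 h). That of Fezf2 was larger by 0.70 ± 0.14 (adjusted p = 0.000336, edgeR; 3 of 3 libraries). Both differences use the same water libraries, so each equals the difference between the bicuculline groups.

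Under MM401 the response of Cux1 at 4 h, against water for 4 h, was smaller than that at 1 h, against water for 1 h (difference -0.35 ± 0.09, adjusted p = 0.0143, edgeR). This test was added after seeing the data, and 12.9% of all genes were called in it. Of the 8 factors tested in it, Cux1 was the only call (Bcl11b -0.31, adjusted p = 0.0985; Fezf2 0.47, adjusted p = 0.186). The 1 h response of Cux1 that it uses was 0.06 with a gene length offset and 0.07 with plain library sizes, neither called.

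In the shallow library left out of the tests, replicate 3 of MM401 with water for 4 h, Cux1 had 203 counts of 316741, or 641 CPM without TMM scaling (95% exact Poisson interval 556 to 735). The other 8 water libraries held 387 to 438 CPM on that scale. Emx1, Emx2, Fezf2 and Neurod6 had 0 counts there, which allows up to 9.47 CPM (3 counts, a one-sided limit; the exact Poisson interval for 0 counts, on the same basis as that of Cux1, reaches 11.6 CPM). These intervals and limits cover counting error only. Neurod6 held 31.4 to 52.2 CPM in the other water libraries.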

How the results depend on the processing

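Of 798 single values of the factors recomputed, 690 stayed the same, 25 changed sign, 36 lost a call, 42 gained one and 5 moved for Emx1. Staying the same meant keeping the direction and the side of the threshold. For Emx1, which was not tested, it meant keeping the direction with a shift smaller than the SE. Tbr1 and Fezf2 stayed called in all alternatives at 4 h in both pretreatments and at 1 h under MM401, and Tbr1 also at 1 h in DMSO. Plain library sizes moved the median of all genes to -0.23 and -0.30 at 1 h and 4 h in DMSO and to -0.21 and -0.06 under MM401, and the genes called higher and lower to 1836 and 6818, 1820 and 7867, 1276 and 6541, and 2794 and 4138 (from 3396 and 4161, 4014 and 4330, 3070 and 3699, and 3898 and 3674). With them these values changed sign: at 1 h in DMSO Cux2 (-0.083) and Bcl11b (-0.056), at 4 h in DMSO Emx2 (-0.22), Cux1 (-0.12), Bcl11b (-0.14) and Neurod6 (-0.25), at 1 h under MM401 Cux2 (-0.17) and Bcl11b (-0.092), and from 1 h to 4 h under MM401 Cux2 (0.044). With a gene length offset so did Emx2 (0.0029) and Cux2 (-0.10) at 1 h in DMSO, Cux1 (-0.094) and Bcl11b (-0.037) at 4 h in DMSO, Cux2 at 1 h (-0.13) and from 1 h to 4 h (0.085) under MM401, and the Cux1 interaction (0.035). The cause was not tested.

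With single libraries left out, signs changed for Emx2 and Neurod6 at 4 h in DMSO (ranges -0.091 to 0.23 and -0.19 to 0.21), Cux2 under MM401 at 1 h, at 4 h and between the times (-0.060 to 0.16, -0.061 to 0.20 and -0.17 to 0.074) and Bcl11b from 1 h to 4 h in DMSO (-0.078 to 0.075). Factors called then ranged from 2 to 5 at 1 h in DMSO, 3 to 5 at 4 h in DMSO, 4 to 5 and 2 to 4 under MM401, 1 to 3 from 1 h to 4 h in DMSO, and 0 to 1 for MM401 in water and for the interaction. Of the 30 other factors, 13 to 19 were then called higher at 1 h in DMSO.

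Counts of called factors moved to 5 of 8 with the replicate number as a block at 1 h in DMSO, 2 with the length offset at 4 h in DMSO, 2 with plain library sizes at 1 h under MM401, 1 with the shallow library kept from 1 h to 4 h in each pretreatment, 4 with DESeq2 from 1 h to 4 h in DMSO and 1 with DESeq2 for the interaction. Of the 30 other factors, the shallow library brought those called higher at 1 h to 7 and 11 and those lower under MM401 to 0, and plain sizes brought higher to 9 and 12 and lower to 8, 2, 3 and 2 in the 4 comparisons. The length offset gave 6 lower at 1 h in DMSO and 1 at 4 h under MM401, as did the groups alone. For the early factors the counts ranged over the alternatives from 1 to 3 higher and 3 to 4 lower at 1 h in DMSO, 0 to 4 higher and 1 to 4 lower at 4 h in DMSO, 1 to 3 higher and 0 to 2 lower at 1 h under MM401, and 3 to 5 higher and 0 to 1 lower at 4 h under MM401.

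The labels do not say what replicate numbers stand for. The sample titles are numbered consecutively through all groups within each replicate number. Replicate numbers were not used as pairs: 10 of 27 correlations of same-numbered deviations were over 0.1 (median 0.0885). In 3 of 7 comparisons with 3 pairs every library was nearest to its own number. The replicate block moved the genes called at 1 h in DMSO from 7557 to 8035 and in MM401 against DMSO in bicuculline for 1 h from 1 to 4. Low counts (70 to 442) limit Emx1, Emx2, Fezf2 and Neurod2.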

Other observations

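Chosen after their values were seen, the time courses of Lhx2 and Rorb, from the 30 other projection neuron factors, are given here. Lhx2, a LIM-homeobox factor of cortical progenitors and upper layers, fell at 1 h (-0.55 ± 0.06 in DMSO and -0.30 ± 0.06 under MM401) and rose at 4 h (0.43 ± 0.06 and 0.53 ± 0.07), with adjusted p from edgeR of at most 0.000644 in each. Its mean level in DMSO was 27.4 CPM with water, 18.7 CPM after 1 h and 37.0 CPM after 4 h. Rorb, a nuclear receptor of layer 4 neurons, rose at all times, with 1.08 ± 0.07 at 1 h in DMSO and 0.34 ± 0.07 at 4 h. The 1 h value in DMSO is against water for 4 h, and under MM401 Rorb stood at 498 CPM with water for 1 h and 308 CPM with water for 4 h. Under MM401, against water of the same time, it rose by 0.57 ± 0.07 at 1 h and 0.48 ± 0.08 at 4 h. Differences between DMSO and MM401 in these values were not tested.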
